A study of Mus musculus with 2 samples.

Results

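The genes of oxidative phosphorylation (OXPHOS) that are encoded in the nucleus were followed across the immune cells of a mouse melanoma. They were taken by name as the rows of the deposited count table whose symbol starts with Nduf, Sdha, Sdhb, Sdhc, Sdhd, Uqcr, Cox4 to Cox8 or Atp5, which gave 93 of 14654 genes. The prefixes caught more than subunits. Of the 93 genes, 79 encode subunits (36 of complex I, 4 of complex II, 8 of complex III, 16 of complex IV and 15 of the ATP synthase, complex V), 7 encode assembly factors of complex I, 4 encode assembly factors of complex II, and Cox7a2l encodes a supercomplex factor. The remaining 2 genes, Atp5s and Atp5sl, share the prefix but not the complex. Ndufa4 and its paralog Ndufa4l2 were counted with complex IV, where the NDUFA4 protein resides. Cyc1, a complex III subunit, and the 13 subunits encoded by the mitochondrial genome lie outside the prefixes and are given separately. All 93 genes are annotated as protein coding (GENCODE M21, GRCm38), on 19 chromosomes with 3 on X and none on the mitochondrial genome.

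The study engrafted YUMMER1.7, a mouse melanoma line with a high mutation load, under the skin of male C57BL/6 mice, 8 weeks old, of which 1 group was wild type (WT) and the other lacked Siah2 (Siah2-/-), the gene of a RING-type ubiquitin ligase. Tumors were taken at day 11, live CD45+ cells were sorted and mixed with CD45- cells at 5 to 1, and 10x 3′ (version 2) libraries were made, 1 per genotype. The genotype is that of the host mouse. The number of tumors pooled and the deleted part of Siah2 were not given in the sources used here. With 1 library per genotype, the effects of genotype, tumor pool, cell suspension and library cannot be told apart, and no difference between the libraries was tested. Values are therefore given for each library with exact 95% intervals (Clopper-Pearson for shares, and the conditional binomial for ratios). The intervals cover counting error only.

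After the authors' filters, 4512 cells of the WT library and 5563 of the Siah2-/- library were analysed, with medians of 11440 and 8700 UMIs (unique molecular identifiers, 1 per captured transcript). The sets had 34 barcodes in common. Siah2 itself was counted in both libraries, at 12.5 CPM (UMIs per 1000000 UMIs of the set; 273 UMIs) in WT macrophages and 11.5 CPM (261 UMIs) in macrophages of the library labelled Siah2-/-. Since the deleted part is not given, a 3′ tag does not check the genotype, and the libraries are called by their labels throughout. Cells were gated by marker UMIs into macrophages (1950 WT and 2228 Siah2-/-), dendritic cells (76 and 109), CD8 T cells (450 and 830), CD4 T cells (21 and 308), regulatory T cells (Tregs; 53 and 76) and NK cells (376 and 602). The gates used these markers, so the following levels describe the gates and do not test them. The CD3 genes summed to 3837 and 4122 CPM in CD8 T cells against 16.1 and 47.1 CPM in macrophages, and the macrophage genes to 19077 and 13107 CPM in macrophages against 213 and 256 CPM in CD8 T cells.

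OXPHOS oxidizes NADH at complex I and succinate at complex II, passes the electrons through complex III and cytochrome c to oxygen at complex IV, and uses the proton gradient so built to make ATP at complex V. Its nuclear genes are transcribed in every cell type and are known to be driven by shared factors, among them NRF1, the GA-binding protein of the ETS family, YY1 and the estrogen-related receptors (ERR). In macrophages and T cells the balance of OXPHOS and glycolysis shifts with activation and oxygen supply. Several subunits exist as paralogs encoded by separate genes, among them COX4 (Cox4i1 and Cox4i2), COX6A, COX6B, COX7A and the c subunit of the ATP synthase rotor (Atp5g1, Atp5g2 and Atp5g3), whose 3 genes encode the same mature protein behind different import sequences.

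Promoter windows from RefSeq (GRCm38.p6, 250 bases before and 50 bases after each annotated start) were matched for 78 of the 93 genes, 75 by symbol and 3 by an older symbol. They were searched on both strands for the NRF1 motif GCGCNTGCG, the YY1 motif AAGATGGCG, the ETS and GABP motif CCGGAAGT, the ERR motif TCAAGGTCA and the Sp1 motif GGGCGG. Matches of different motifs were allowed to overlap. The NRF1 letters occurred in 28 of the 78 genes (35.9%) against 14.3% of the 10715 genes of the count table with a window and 7.12% of all 27025 genes with a window. Those 28 genes spread over complexes I, II, III and V and the assembly factors, with Cox6a1 as the only gene of complex IV. They also included Atp5sl, which shares only the prefix. Among them were Sdha, Sdhd, Uqcrc1, Ndufa5, Ndufa6, Ndufa8, Atp5c1, Atp5g2, Atp5g3 and Atp5o. The YY1 letters occurred in 8 genes (10.3% against 3.29% of the table's genes) and the ERR letters in 2 genes, Atp5g3 and Sdhd (2.56% against 0.317%). The shares of ETS letters (6.41% against 8.46%) and Sp1 letters (47.4% against 65.8%) were below those of the table's genes, and 17 of the 78 genes held none of the 5 motifs. A match describes letters and not a bound site.

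The windows of 5 genes are shown because the values below turn on them. They comprise the c subunit genes, whose balance differed between the libraries, Ndufa4, which was lower in the Siah2-/- library in 5 of 6 classes, and Uqcrh, which was at or above its WT level in every class. Each stretch runs from 150 bases before to 30 bases after the start, 5′ to 3′ on the gene's strand, with motif letters in capitals.
Atp5g1, chr11:96075602-96075781, minus strand: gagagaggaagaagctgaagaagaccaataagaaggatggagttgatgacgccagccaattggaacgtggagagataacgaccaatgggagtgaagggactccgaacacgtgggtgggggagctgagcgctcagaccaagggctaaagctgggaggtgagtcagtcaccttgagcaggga
Atp5g2, chr15:102671018-102671197, minus strand: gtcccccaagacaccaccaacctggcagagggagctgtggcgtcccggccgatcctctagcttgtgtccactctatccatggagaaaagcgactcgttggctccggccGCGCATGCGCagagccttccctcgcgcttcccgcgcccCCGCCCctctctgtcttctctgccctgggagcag
Atp5g3, chr2:73911297-73911476, minus strand: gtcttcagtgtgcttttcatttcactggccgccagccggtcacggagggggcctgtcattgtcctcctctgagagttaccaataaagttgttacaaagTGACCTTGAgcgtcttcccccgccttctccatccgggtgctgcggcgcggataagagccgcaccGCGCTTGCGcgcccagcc
Ndufa4, chr6:11907421-11907600, minus strand: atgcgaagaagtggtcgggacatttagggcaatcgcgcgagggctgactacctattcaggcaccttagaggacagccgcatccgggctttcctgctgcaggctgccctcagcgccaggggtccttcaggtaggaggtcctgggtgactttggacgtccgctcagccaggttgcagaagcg
Uqcrh, chr4:116075041-116075220, minus strand: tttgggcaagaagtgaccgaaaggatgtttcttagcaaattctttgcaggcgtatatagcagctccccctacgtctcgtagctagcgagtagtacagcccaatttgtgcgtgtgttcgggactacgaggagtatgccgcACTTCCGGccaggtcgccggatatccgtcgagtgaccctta
The capitals in Atp5g2 mark the NRF1 letters, read on both strands from 42 bases before the start, followed by the Sp1 letters on the opposite strand. In Atp5g3 they mark the ERR letters on the opposite strand, which begin 52 bases before the start, and the NRF1 letters, which begin at base 13 of the transcript. Atp5g1 and Ndufa4 held none of the 5 motifs in the whole window, and Uqcrh held the ETS letters on the opposite strand. The end of the Atp5g2 window did not match the first bases of a GENCODE transcript of the gene, as it did for 74 of the 84 windows.

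Together the 93 genes took a smaller share of the transcriptome in the Siah2-/- library in all 6 immune classes. In macrophages they held 2.70% of UMIs in WT and 2.51% in Siah2-/- (log2 ratio −0.11, −0.11 to −0.10). The difference was wider in CD8 T cells, from 3.27% to 2.79% (−0.23, −0.24 to −0.22), in Tregs, from 3.01% to 2.57% (−0.23, −0.26 to −0.20), and in dendritic cells, from 2.56% to 2.16% (−0.25, −0.27 to −0.22). NK cells differed least at this scaling, at 2.67% and 2.54% (−0.07, −0.09 to −0.06). The median log2 ratio over all genes was 0.06 in NK cells and −0.05 in macrophages, and centred on it macrophages differed by less than NK cells. CD4 T cells held 2.87% and 2.68% (−0.10, −0.14 to −0.06), on 21 WT cells. The CD4 T value was −0.01 with a stricter gate and −0.05 without cycling cells. CD8 T cells had the highest share of the 6 classes in both libraries and dendritic cells the lowest.

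A difference of like size was present outside the immune cells. Stromal cells were gated by UMIs of collagen genes, Dcn and Pdgfra, and not by the sort on CD45. They held 2.90% and 2.54% (log2 ratio −0.19). The empty droplets of each library, which carry RNA freed from all cells, held 2.94% and 2.72% (−0.11, −0.12 to −0.10). The libraries also differed in makeup, with stromal cells 16.4% of the cells analysed in WT and 2.16% in Siah2-/-. Empty droplets can therefore carry unlike mixtures of RNA. What part of these differences lies in the class values was not tested. Cells of the WT library were also deeper and more often cycling. Among CD8 T cells 37.1% in WT and 14.0% in Siah2-/- passed the cycling gate, and in macrophages 8.41% and 2.92%. Cycling CD8 T cells held 3.35% and 3.01% OXPHOS UMIs (−0.15) and the others 3.19% and 2.72% (−0.23), so the lower share was present on both sides of the gate. Without cycling cells macrophages stood at 2.67% and 2.49% (−0.10). Cells were also binned by depth, in 4 bins between 5000 and 25000 UMIs. Log2 ratios ran from −0.12 to −0.09 in macrophages and from −0.31 to −0.18 in CD8 T cells. Depths were not alike in the bin under 7500 UMIs, since the lowest analysed cell had 6670 UMIs in WT and 4896 in Siah2-/-. That bin had the widest difference in both classes. In the other bins the ratios were −0.09 in macrophages and from −0.21 to −0.18 in CD8 T cells. Ribosomal protein genes were also lower in macrophages, at 17.2% of UMIs in WT and 15.5% in Siah2-/-, and their part in the difference was not tested.

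The macrophages were a mixture whose makeup differed between the libraries. Macrophages were put in a state by marker UMIs, among them those of Mgl2, of Folr2, Fcrls and Ccl8 (resident-like), of Ifit genes and Rsad2 (interferon-induced), of Chil3, Vcan and Hp (monocyte-like) or of cell cycle genes. The 5 states described here held 37.2% of WT macrophages and 22.0% of Siah2-/- macrophages, and the values below leave out the others. Monocyte-like cells made up 6.36% of WT macrophages and 12.1% of Siah2-/- macrophages. Resident-like cells made up 10.1% and 1.30%, and cells with Mgl2 6.62% and 2.42%. OXPHOS shares differed between these states by more than between the libraries. The states also differed in depth, with medians of 16187.5 and 19048 UMIs in WT and Siah2-/- cycling cells and 7689 and 6605 in monocyte-like cells. Over all WT macrophages the share rose with depth, from 2.48% at 5000 to 7500 UMIs to 2.89% at 15000 to 25000 UMIs. The part of depth in the order of the states was not tested. Cycling macrophages held 2.95% in WT and 2.86% in Siah2-/-, and resident-like cells 2.85% and 2.86%. At the low end were interferon-induced cells, at 2.46% and 2.26%, and monocyte-like cells, at 2.52% and 2.24%. Cells with Mgl2 lay between, at 2.78% and 2.59%.

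Within these states the library difference was between 0.00 and −0.17 on the log2 scale. It was −0.17 in monocyte-like cells, −0.12 in interferon-induced cells, −0.10 in cells with Mgl2 and −0.04 in cycling cells. In resident-like cells, of which the Siah2-/- library held 29, the ratio was 0.00 (−0.03 to 0.03). When the Siah2-/- macrophages of all states, those not described included, were weighted as in WT, the macrophage ratio was −0.07 in place of −0.11, a weighting chosen after the values were seen.

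**Figure D1:**
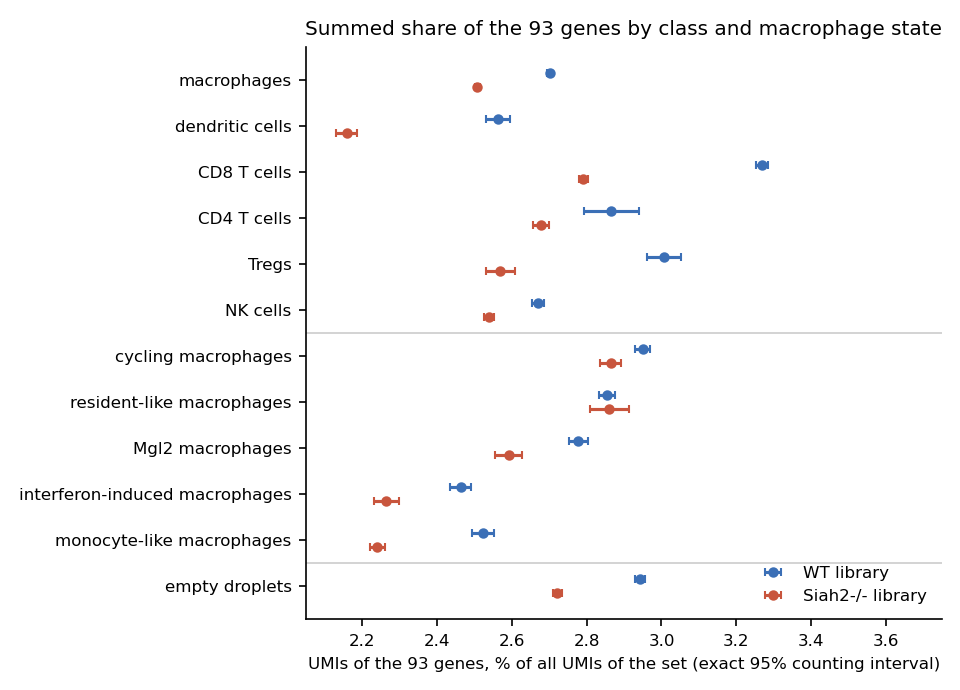
UMIs of the 93 OXPHOS genes as a percentage of all UMIs (x axis, which does not start at 0) for 6 immune classes, 5 macrophage states and empty droplets, in the WT (blue) and Siah2-/- (red) library, with bars for the exact 95% counting interval. The Siah2-/- point lies below the WT point in every set but the resident-like macrophages, where both are near 2.85%, and the gap is wide in CD8 T cells (3.27% against 2.79%) and narrow in NK cells (2.67% against 2.54%).

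Gene by gene the difference was broad and small. In macrophages 92 of the 93 genes had at least 50 UMIs over both libraries, and all counts below are over genes with that minimum. Of these, 73 were lower in Siah2-/-, beside 56.3% of all 10637 genes measured, and the median log2 ratio was −0.13 against −0.05 for all genes. Few were past 0.5 on the log2 scale. Only 2 of the 92 were lower by that much (Ndufa4 and Cox6a2), beside 9.85% of all genes, and 1 was higher (Cox4i2), beside 10.5%. In CD8 T cells 80 of 87 genes were lower (55.9% of all genes), 5 of them past 0.5 (11.1% of all genes) and none higher by that much (11% of all genes), with a median of −0.26 against −0.06. In dendritic cells 73 of 79 were lower (51.9%), 8 of them past 0.5 (13.7%) and none higher (16.5%), with a median of −0.26 against −0.02. In Tregs 68 of 78 were lower (51.9%), 12 of them past 0.5 (17.4%) and none higher (15.9%). In NK cells 62 of 87 were lower (42.1%), 1 of them past 0.5 (3.95%) and none higher (13%), with a median of −0.07 against 0.06. CD4 T cells gave 52 of 82 lower (49.7%), 9 past 0.5 (17.4%) and 3 higher by that much (22.9%). The shares of OXPHOS genes past 0.5 were under the shares of all genes in all 6 classes, and the shares of genes below 0 were above them in all 6. For lower genes past 0.5 this order did not hold under some alternatives in Tregs (21 of 75 with a stricter gate, 28%, beside 18.5%) and dendritic cells (12 of 76 in a depth window of 7500 to 15000 UMIs, 15.8%, beside 11.2%). At a fold of 0.25 it did not hold for lower genes in CD8 T cells (54% beside 28.8%), dendritic cells (54.4% beside 30.7%) and Tregs (48.7% beside 32.5%). It held there in macrophages, CD4 T cells and NK cells. The genes of any kind were not matched to the OXPHOS genes in level, and the part of level in these shares was not tested. Of the 79 genes measured in macrophages, dendritic cells, CD8 T cells and NK cells, 49 (62%) were lower in all 4 classes, beside 25.5% of the 3734 genes of any kind measured there, and 1, Uqcrh, was above 0 in all 4 (by less than 0.01 in macrophages), beside 18.7%. The classes of a library share its handling and its free RNA, so these are not independent observations.

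All 5 complexes were lower in macrophages and CD8 T cells. In macrophages the summed level stood at 7996 and 7507 CPM for complex I (log2 ratio −0.09), at 713 and 648 CPM for complex II (−0.14), at 2666 and 2474 CPM for complex III (−0.11), at 7317 and 6893 CPM for complex IV (−0.09) and at 7659 and 6943 CPM for the ATP synthase (−0.14). The ratios in CD8 T cells were −0.20, −0.31, −0.20, −0.22 and −0.29 in the same order. In complex I the 7 core subunits encoded in the nucleus, which include those with the flavin and the iron-sulfur clusters, were lower by more than the 29 accessory subunits, at −0.21 against −0.08 in macrophages and −0.37 against −0.18 in CD8 T cells. Dendritic cells had no such gap, with the core subunits at −0.24 (−0.39 to −0.09) and the accessory subunits at −0.27 (−0.33 to −0.22). All 7 core genes were below 0 in macrophages. Among them Ndufs8 stood at 184 and 148 CPM (−0.31). In CD8 T cells Ndufv1, the flavin and NADH binding subunit, stood at 115 and 79.2 CPM (−0.54) and Ndufs7 at 180 and 128 CPM (−0.50). NK cells had ratios of −0.04, −0.06, −0.03, −0.07 and −0.12 over complexes I to V.

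**Figure D2:**
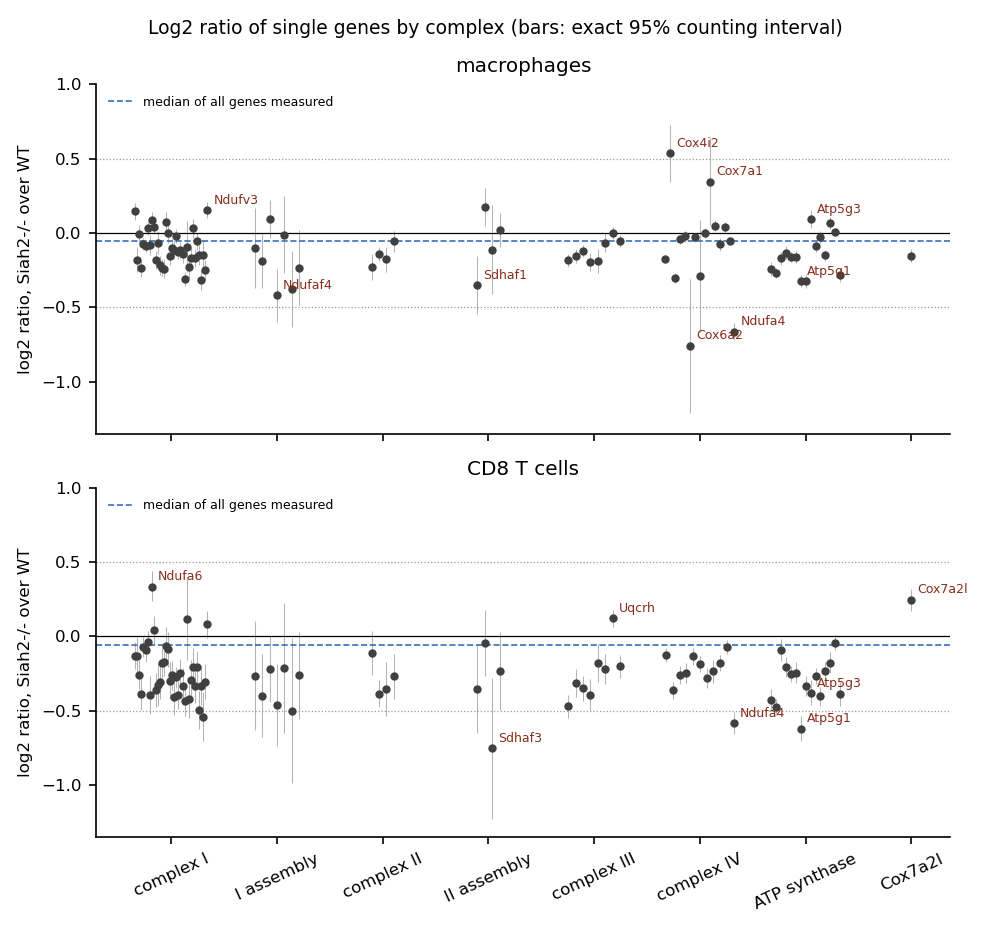
Log2 ratio of each OXPHOS gene, Siah2-/- over WT (y axis), grouped by complex (x axis), in macrophages (top) and CD8 T cells (bottom), with bars for the exact 95% counting interval, dotted lines at 0.5 and −0.5 and a dashed line at the median of all genes measured. Most points lie between 0 and −0.5 in both panels, Cox4i2 (0.54), Ndufa4 (−0.66) and Cox6a2 (−0.76) stand apart in macrophages, and Ndufa6 (0.34) and Cox7a2l (0.25) lie above 0 in CD8 T cells.

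Succinate dehydrogenase, complex II, feeds electrons from the citric acid cycle. In macrophages Sdha, the flavoprotein, was at 103 CPM in WT and 88.1 CPM in Siah2-/- (log2 ratio −0.23, −0.32 to −0.14). Sdhb, the iron-sulfur subunit, was at 342 and 311 CPM (−0.14), and the membrane anchors Sdhc and Sdhd at 108 and 95.1 CPM (−0.18) and at 160 and 154 CPM (−0.06). The interval of Sdhd (−0.13 to 0.01) included 0. In CD8 T cells Sdhb stood at 360 and 275 CPM (−0.39, −0.48 to −0.30), while Sdha stood at 122 and 113 CPM, with an interval that included 0. In NK cells the intervals of all 4 subunits included 0.

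In complex III, Uqcrc1 and Uqcrc2, the core proteins that face the matrix, were lower in macrophages, the first at 231 and 202 CPM (log2 ratio −0.19) and the second at 123 and 108 CPM (−0.19). Uqcrfs1, the Rieske iron-sulfur protein, was at 194 and 185 CPM (−0.06). Uqcrh, the hinge protein that helps cytochrome c dock, did not follow. It was at 432 CPM in macrophages of both libraries (0.00, −0.04 to 0.04), at 725 and 788 CPM in CD8 T cells (0.12, 0.06 to 0.18), at 671 and 683 CPM in NK cells (0.02), at 499 and 512 CPM in dendritic cells (0.04) and at 750 and 908 CPM in CD4 T cells (0.28). Its counting interval lay above 0 in CD8 T cells and in CD4 T cells, the latter on 21 WT cells.

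Ndufa4 had the second lowest ratio of the 92 genes in macrophages and the lowest among those above 100 CPM. NDUFA4 was once assigned to complex I and is now placed in complex IV. Its level was 282 CPM (6148 UMIs) in WT macrophages and 178 CPM (4021 UMIs) in Siah2-/- macrophages, with the log2 ratio at −0.66 (−0.72 to −0.61). Lower levels were found in CD8 T cells as well, at 580 and 387 CPM (−0.58), in dendritic cells, at 355 and 247 CPM (−0.52), in CD4 T cells, at 485 and 277 CPM (−0.81), and in Tregs, at 577 and 460 CPM (−0.33). In a depth window of 7500 to 15000 UMIs the ratio in dendritic cells was −0.20, and with the same lowest UMI count in both libraries that in Tregs was −0.07. NK cells were the exception, at 317 and 327 CPM (0.05, −0.06 to 0.15), with −0.08 in the depth window. Stromal cells had 334 and 197 CPM (−0.76) and empty droplets 445 and 371 CPM (−0.26). Cycling CD8 T cells had a ratio of −0.29 (617 and 504 CPM) and the others −0.65 (547 and 349 CPM).

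Ndufa4 also varied across macrophage states. Pooled over both libraries it was at 408 CPM in resident-like cells. Monocyte-like cells had close levels in both libraries, 352 CPM in WT and 339 CPM in Siah2-/- (−0.05). The libraries parted in resident-like cells, at 435 and 238 CPM (−0.87), in cycling cells, at 349 and 203 CPM (−0.78), and in cells with Mgl2, at 211 and 140 CPM (−0.59). With the states weighted as in WT the levels were 275 and 192 CPM, a log2 ratio of −0.52. The paralog Ndufa4l2 was close to absent, with 9 UMIs in WT and 17 in Siah2-/- macrophages, which is too few for a ratio.

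AA467197, the mouse gene of the protein known in humans as C15orf48 or NMES1, was looked up after the values of Ndufa4 were seen and is not one of the 93 genes. Its protein is a paralog of NDUFA4 that can take its place in complex IV, and its transcript carries the precursor of miR-147. In macrophages it was at 465 CPM in WT and 733 CPM in Siah2-/- (log2 ratio 0.66, 0.62 to 0.69). This ratio was not weighted by the states of WT, unlike that of Ndufa4. Within states it was 0.05 in interferon-induced cells, 0.52 in cells with Mgl2, 0.54 in cycling cells, 1.59 in resident-like cells and −1.43 in monocyte-like cells. AA467197 was also higher in CD8 T cells, at 202 and 345 CPM (0.77), and in dendritic cells, at 490 and 593 CPM (0.28), and lower in NK cells, at 316 and 267 CPM (−0.25). Across states it stood at 821 and 850 CPM in interferon-induced cells, where Ndufa4 was at 230 and 169 CPM, and at 40.0 and 120 CPM in resident-like cells, where Ndufa4 was at 435 and 238 CPM. Monocyte-like cells were high in both genes in WT, with 992 CPM of AA467197 beside 352 CPM of Ndufa4, and had 367 CPM of AA467197 in Siah2-/- (−1.43). In stromal cells, where Ndufa4 differed by −0.76, AA467197 stood at 169 and 163 CPM (−0.05).

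**Figure D3:**
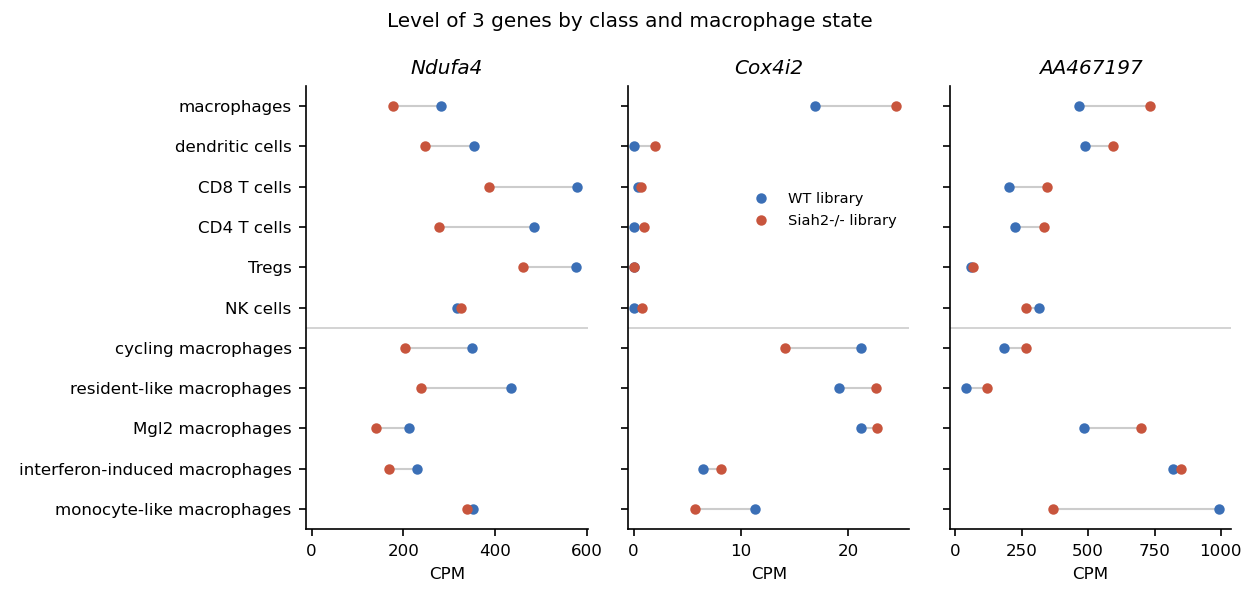
Level in CPM (x axes, each with its own scale) of Ndufa4, Cox4i2 and AA467197 in 6 immune classes and 5 macrophage states, with blue points for the WT library and red points for the Siah2-/- library, 1 library each, joined by a grey line. Ndufa4 is lower in Siah2-/- in 5 of 6 classes (282 and 178 CPM in macrophages), and AA467197 is higher in Siah2-/- macrophages (465 and 733 CPM) and lower in Siah2-/- monocyte-like cells (992 and 367 CPM).

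Cox4i2, the COX4 paralog known to be induced by hypoxia, was the gene past 0.5 in the other direction. It was at 16.9 CPM (369 UMIs) in WT macrophages and 24.5 CPM (554 UMIs) in Siah2-/- macrophages, with the log2 ratio at 0.54 (0.34 to 0.73), while Cox4i1, the common form, stood at 1159 and 1027 CPM (−0.17). Cox4i2 thus made up 1.44% of COX4 transcripts in WT and 2.33% in Siah2-/-. Of the 479 and 722 Cox4i2 UMIs in all cells analysed, the macrophage gate held 369 and 554, and cells in no gate 106 and 154. Stromal cells had 2 and 0 UMIs, CD8 T cells had 2 and 6 UMIs, NK cells 0 and 4, dendritic cells and CD4 T cells 0 and 2, and Tregs none. Within macrophages resident-like cells had 19.2 and 22.6 CPM, cells with Mgl2 21.2 and 22.7 CPM, cycling cells 21.2 and 14.1 CPM, and monocyte-like cells 11.3 and 5.74 CPM on 12 and 11 UMIs. Empty droplets stood at 6.26 and 7.60 CPM. Weighted by the states of WT, the macrophage levels were 16.2 and 17.6 CPM (0.12).

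The other complex IV paralogs known from muscle or testis were rare. Cox6a2, the muscle form of COX6A, was at 5.08 and 3.01 CPM in macrophages on 111 and 68 UMIs (log2 ratio −0.76, −1.22 to −0.31) and made up 0.956% and 0.576% of COX6A transcripts. Resident-like cells held 32 and 8 of these UMIs, at 13.0 and 20.1 CPM. Empty droplets stood at 8.02 and 10.6 CPM, above the macrophage level. With the states weighted as in WT its ratio was −0.02. Cox7a1, the muscle form of COX7A, was at 7.97 and 10.1 CPM (0.35), a share of 1.64% and 2.01%, and its weighted ratio was 0.09. Cox6b2, the testis form of COX6B, was at 6.05 and 4.95 CPM (−0.29) with an interval from −0.66 to 0.09. In empty droplets it was at 7.23 and 10.6 CPM, above the macrophage level. Its share was 2.51% and 1.65% in monocyte-like cells against 0.766% and 0.642% in all macrophages. The common forms barely differed in macrophages. Cox6a1 was at 527 and 519 CPM (−0.02), Cox6b1 at 783 and 767 CPM (−0.03) and Cox7a2 at 477 and 494 CPM (0.05). Cox8b, the muscle form of COX8, was not analysed here.

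The c subunit genes of the ATP synthase differed in direction in macrophages. Atp5g1 was at 459 CPM in WT and 367 CPM in Siah2-/- (log2 ratio −0.32, −0.37 to −0.28), and Atp5g2 at 482 and 384 CPM (−0.33, −0.37 to −0.29). Atp5g3 was at 202 and 216 CPM (0.09, 0.04 to 0.15). The Atp5g3 share of the 3 genes was therefore 17.7% in WT and 22.3% in Siah2-/-. It was also higher in Siah2-/- in dendritic cells (18.4% and 21.6%), CD8 T cells (26.9% and 27.8%), CD4 T cells (22.4% and 26.5%), Tregs (27.3% and 32.9%) and NK cells (22.5% and 25.3%). The level of Atp5g3 itself differed by class. All 3 genes were lower in CD8 T cells, with Atp5g3 at 404 and 311 CPM (−0.38) and Atp5g1 at 462 and 300.2 CPM (−0.62). The share was higher within macrophage states too, at 18.9% and 26.1% in resident-like cells, 20.5% and 25.5% in monocyte-like cells and 18.3% and 22.4% in cycling cells. Weighted by the states of WT, the macrophage ratio of Atp5g3 was 0.19 and that of Atp5g1 and Atp5g2 −0.25. Stromal cells had shares of 16.2% and 20.1%.

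**Figure D4:**
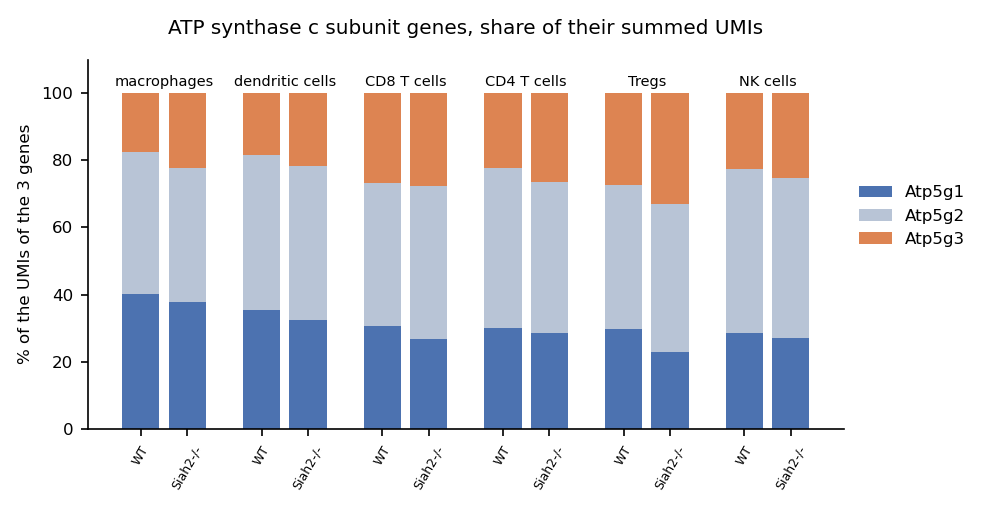
Stacked bars of the share of Atp5g1, Atp5g2 and Atp5g3 in the summed UMIs of the 3 ATP synthase c subunit genes (y axis, %), for the WT and Siah2-/- library of 6 immune classes. The Atp5g3 part is larger in the Siah2-/- bar of every class, from 17.7% to 22.3% in macrophages and from 26.9% to 27.8% in CD8 T cells, and the Atp5g1 part is smaller.

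The rest of the ATP synthase was mostly lower. The catalytic subunits Atp5a1 and Atp5b were at 393 and 332 CPM (log2 ratio −0.24) and at 758 and 629 CPM (−0.27) in macrophages, and at 567 and 421 CPM (−0.43) and 1080 and 777 CPM (−0.47) in CD8 T cells. Atp5o, which joins the peripheral stalk to the catalytic head, was at 359 and 295 CPM in macrophages (−0.28). In NK cells Atp5b was at 773 and 687 CPM (−0.17), while the interval of Atp5a1 (−0.18 to 0.00) reached 0.

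Assembly factors were low in level and varied. In macrophages Ndufaf4 stood at 27.1 and 20.3 CPM (log2 ratio −0.42, −0.60 to −0.24), Ndufaf6 at 13.3 and 10.3 CPM (−0.38) and Sdhaf1, which helps to insert the iron-sulfur clusters of SDHB, at 22.0 and 17.2 CPM (−0.35). Sdhaf2, which is needed to attach the flavin of SDHA, was higher, at 41.3 and 46.7 CPM (0.18, 0.05 to 0.31). Ndufaf3 was at 43.3 and 46.2 CPM, with an interval that included 0. Ndufaf4 was the NK cell gene past 0.5, at 41.2 and 25.1 CPM (−0.71, −1.05 to −0.37). Sdhaf3 had the lowest ratio in CD8 T cells, at 15.6 and 9.26 CPM on 79 and 76 UMIs (−0.75). Summed, the complex I assembly factors stood at −0.13 in macrophages, −0.32 in CD8 T cells and −0.53 in dendritic cells, and the complex II factors at 0.01, −0.23 and 0.22.

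Some accessory genes ran against the rest. In macrophages Ndufv3 (254 and 283 CPM, log2 ratio 0.15), Ndufa1 (212 and 235 CPM, 0.15) and Ndufa6 (271 and 288 CPM, 0.09) were higher in Siah2-/-, each with an interval above 0. Ndufa6, an accessory subunit of the LYR family, was higher in CD8 T cells as well, at 234 and 296 CPM (0.34, 0.23 to 0.44). That difference stood in non-cycling cells, at 258 and 328 CPM (0.35), and not in cycling cells, at 207 and 195 CPM (−0.09). Cox7a2l, classed here as a supercomplex factor, was higher in CD8 T cells, at 437 and 519 CPM (0.25, 0.17 to 0.32), and lower in macrophages, at 378 and 340 CPM (−0.15), and in NK cells, at 522 and 461 CPM (−0.18).

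In the small classes the genes with the lowest ratios differed. In dendritic cells they were Sdhc (79.0 and 49.0 CPM, log2 ratio −0.69), Ndufab1, the mitochondrial acyl carrier protein (198 and 123 CPM, −0.68), and Ndufa9 (135 and 87.2 CPM, −0.63). In Tregs they were Ndufa12 (233 and 131 CPM, −0.84), Ndufab1 (231 and 137 CPM, −0.75) and Atp5g1 (389 and 237 CPM, −0.71). In both classes the intervals of these genes were below 0 but wide, for example −1.25 to −0.42 for Ndufa12. In CD4 T cells Sdhaf4 (−1.17), Ndufa10 (−0.92) and Ndufa4 (−0.81) were lowest, and Ndufs1 (0.77) and Ndufaf2 (0.52), each on 3 UMIs in WT, and Sdhd (0.65) on 13 UMIs in WT, were highest with intervals that included 0. The genes with the highest ratios in Tregs were Ndufa6 (0.25), Cox7a2l (0.20) and Uqcrh (0.18), and in dendritic cells Sdhaf4 (0.35), Sdhaf1 (0.30) and Atp5h (0.15), all with intervals that included 0.

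The levels of the 93 genes spanned a wide range in each class. In WT macrophages they ran from 0.412 CPM for Ndufa4l2 to 1159 CPM for Cox4i1, with a median of 226 CPM, and 73 genes were at 100 CPM or more. In Siah2-/- macrophages the median was 202 CPM and 70 genes were at 100 CPM or more. CPM from 3′ tags counts transcript ends and needs no correction for length, but capture differs between genes. Many OXPHOS genes have near-identical processed pseudogenes, and reads shared with such copies may be lost or split, so the level of a single gene is uncertain. The 10 highest genes held 29.7% and 29.9% of the summed level. The genes at the top were largely shared by the classes, in differing order. Atp5b, Atp5e, Atp5l, Cox4i1, Cox6b1, Cox6c, Cox7c and Cox8a were among the 10 highest in all 12 sets of class and library.

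Across the 6 classes, pooled over both libraries, the 78 genes with at least 50 UMIs in each comparison varied by a median of 1.45-fold between their highest and lowest class. Sdhaf1 varied by 4.47-fold, from 19.6 CPM in macrophages to 87.6 CPM in dendritic cells. Ndufaf3 varied by 2.28-fold (72.5 CPM in Tregs and 31.8 in dendritic cells), Ndufa4 by 2.25-fold (515 CPM in Tregs and 229 in macrophages), Uqcrh by 2.07-fold (895 CPM in CD4 T cells and 432 in macrophages) and Atp5g3 by 1.99-fold (348 CPM in Tregs and 175 in dendritic cells). For Ndufaf3 CD4 T cells were above Tregs within each library (81.7 and 81.4 CPM in WT, 68.7 and 64.6 CPM in Siah2-/-), on 16 WT UMIs in CD4 T cells. Tregs were the highest class for Ndufa4 and Atp5g3 in the Siah2-/- library only. In WT the CD8 T cells were highest, at 580 CPM of Ndufa4 beside 577 CPM in Tregs, and at 404 CPM of Atp5g3 beside 356 CPM in Tregs. Uqcrh and Atp5g3 were higher in each of the 4 lymphocyte classes than in macrophages and dendritic cells, in both libraries. At the flat end Ndufb6 (1.15-fold), Ndufa7 (1.16-fold), Cox4i1 (1.16-fold), Ndufa3 (1.20-fold) and Cox7c (1.21-fold) barely differed by class. Across macrophage states, genes with their highest level in cycling cells included Ndufab1 (259 CPM in cycling and 106 CPM in monocyte-like cells, 2.44-fold), Ndufa5 (209 and 88.1 CPM, 2.38-fold) and Atp5g2 (594 and 267 CPM, 2.22-fold).

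From cell to cell the OXPHOS share varied by more than counting alone gives. In macrophages the median cell held 2.63% in WT and 2.42% in Siah2-/-, with SDs over cells of 0.430 and 0.465 percentage points, where counting gives 0.162 and 0.167. The share followed that of the mitochondrial ribosomal protein genes in every class, with Pearson r of 0.58 and 0.59 over the 1950 and 2228 macrophages and 0.46 and 0.51 over the 450 and 830 CD8 T cells. Its relation to the glycolysis share differed by class. In CD8 T cells r was 0.44 and 0.53, and in macrophages −0.06 and −0.26. All these cells share a library and the shares share a denominator, and r with the log of the UMI count was 0.30 and 0.32 in macrophages. The values are descriptions.

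The 13 subunits encoded by the mitochondrial genome did not keep a fixed ratio to the nuclear ones. In macrophages they stood at 15605 and 13085 summed CPM (log2 ratio −0.25), a wider difference than the −0.11 of the nuclear genes, and nuclear UMIs per mitochondrially encoded UMI were 1.69 in WT and 1.87 in Siah2-/-. The same quotient was 1.56 and 1.69 in NK cells but 1.95 and 1.77 in CD8 T cells and 1.77 and 1.65 in dendritic cells, and 0.993 and 0.876 in stromal cells. The authors had removed cells with many mitochondrial transcripts, and the effect of that filter on this quotient was not tested.

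Other metabolic lists give the setting. Past 0.5 were 10.5% of all genes higher and 9.85% lower in macrophages, and 11% and 11.1% in CD8 T cells. In macrophages the 77 mitochondrial ribosomal protein genes had a median log2 ratio of −0.23 (1 past 0.5 in each direction), the 13 citric acid cycle genes −0.19 (none higher and 2 lower past 0.5) and the 18 import genes −0.15 (2 higher and 1 lower). The 17 glycolysis genes lay on the other side, with a median of 0.69, 13 higher past 0.5 and none lower, and a summed level of 8086 and 12659 CPM. Pgk1 was at 72.1 and 236 CPM, Aldoa at 897 and 1562 CPM, Gapdh at 2075 and 3108 CPM and Ldha at 1114 and 1387 CPM. The hypoxia-induced list, which holds Cox4i2 and Ndufa4l2, had a median of 0.74, with 8 of 12 higher past 0.5 and none lower. The glycolysis median was 0.22 within resident-like cells and −0.09 within monocyte-like cells, beside −0.02 and −0.05 over all genes there. In CD8 T cells glycolysis had a median of 0.14 (3 of 16 higher past 0.5), the mitochondrial ribosome −0.30 (13 of 76 lower past 0.5) and the citric acid cycle −0.30 (2 of 13 lower past 0.5). In NK cells the medians were 0.17, −0.17 and −0.10. These lists were chosen with earlier results of the data known.

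Respiratory genes outside the prefixes went both ways. Cyc1, cytochrome c1 of complex III, was at 158 and 135 CPM in macrophages (log2 ratio −0.23), at 210 and 137 CPM in CD8 T cells (−0.61) and at 175 and 87.2 CPM in Tregs (−1.01). Atpif1, the inhibitor of the ATP synthase, was lower in all 6 classes, at 419 and 318 CPM in macrophages (−0.40), 802 and 462 CPM in dendritic cells (−0.80), 290 and 204 CPM in CD8 T cells (−0.51), 338 and 179 CPM in Tregs (−0.92), 393 and 146 CPM in CD4 T cells (−1.43) and 199 and 157 CPM in NK cells (−0.34). Usmg5, a small membrane subunit of the ATP synthase, was higher, at 311 and 433 CPM in macrophages (0.48), 284 and 422 CPM in dendritic cells (0.57) and 286 and 389 CPM in NK cells (0.44). Of the regulators, Nrf1 was at 21.0 and 23.7 CPM in macrophages (0.17), Gabpa at 11.0 and 11.6 CPM (0.08) and Yy1 at 29.1 and 29.8 CPM (0.03), and none of the 12 regulators measured was past 0.5 in either direction, a small list beside 10.5% and 9.85% of all genes.

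**Figure D5:**
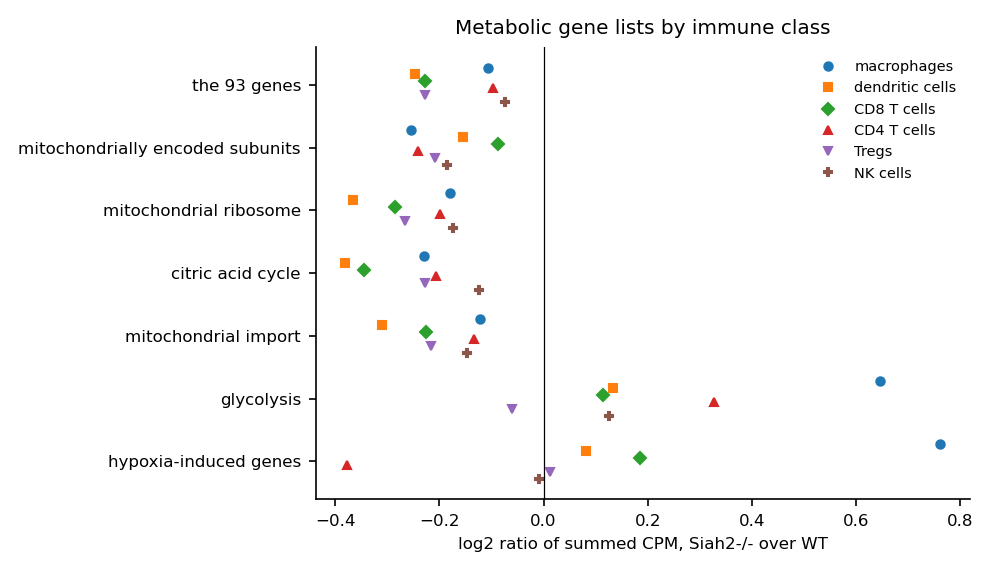
Log2 ratio of summed CPM, Siah2-/- over WT (x axis), of the 93 OXPHOS genes and 6 other gene lists (y axis), with 1 symbol for each of 6 immune classes and 1 library per genotype. The OXPHOS genes lie between −0.25 and −0.07, and glycolysis and hypoxia-induced genes lie to the right of 0 in macrophages (0.65 and 0.76).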

How the data were processed

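Single cell RNA-seq of 2 libraries was analysed, 1 from tumors of WT mice and 1 from tumors of Siah2-/- mice. Per the labels, the authors used bcl2fastq and Cell Ranger with the mouse build mm10 (GRCm38), and the versions are not given in the sources used here. The deposited matrices hold UMI counts of all barcodes. The authors also deposited a table of raw counts and a table of natural log values normalized per cell, both after their filters on genes per cell and mitochondrial share. Cells present in both tables were kept, the normalized values were used for nothing else, and counts were read from the unfiltered matrices for the table's 14654 genes. The table differed from the matrices in 1934 of 66294696 values in WT (357 genes) and 1879 of 81710704 in Siah2-/- (438 genes), and among the OXPHOS genes in Ndufa4l2 only. No column was left unmapped (0).

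Cells were gated by summed UMIs of marker genes, with thresholds set after the marker distributions were seen. Barcodes with both T cell and macrophage markers (371 in WT and 410 in Siah2-/-) were left out of all classes, and no doublet caller was run. UMIs were summed per class and library and scaled to CPM, UMIs per 1000000 UMIs of the table's genes. With 1 library per genotype no test was made. A gene was counted in a class from 50 UMIs over both libraries, and called past a log2 ratio of 0.5. Named genes were the 8 with the highest and the 8 with the lowest ratio in macrophages and 3 of each in the other classes, a fixed set of paralogs and catalytic subunits in each class, and the 5 most variable genes across classes and across states. Further genes were named as parts of their complex. The OXPHOS genes, the gene lists and the rules were chosen with earlier results of these data known. The NRF1 and YY1 motifs were shortened by 1 base after a longer form had been searched. Values of 1 macrophage state and 1 gene are not reported here. The interval calculation was run on simulated counts that held counting error alone. That run cannot show how the intervals behave where cells or libraries vary by more. The alternatives tried were other totals, depth limits, cell sets, weightings, gates, minimums and folds, and free RNA subtraction, taking 5% of each class total as free RNA. Software was Python 3.11.15 with numpy 2.4.6, scipy 1.17.1, pandas 2.3.3, scanpy 1.11.5, leidenalg 0.10.2, scikit-learn 1.9.0 and matplotlib 3.10.9.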

Additional observations from a re-analysis of the deposited data

Results flagged for a closer look

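For 8 OXPHOS genes the counting interval of the log2 ratio, Siah2-/- over WT, lay above 0 in one class and below 0 in another. These were 8 of the 87 OXPHOS genes measured in at least 2 classes (9.2%), beside 7.66% of all 8904 such genes, and all 8 were among the 78 measured in 6 classes, where 15% of all 2631 genes did so. The differences between classes were not tested, since each genotype has 1 library. Cox7a2, the common COX7A form, stood at 0.05 in macrophages and −0.44 in Tregs, a difference of 0.49. Cox8a, a complex IV subunit, stood at 0.24 in CD4 T cells and −0.24 in dendritic cells, a difference of 0.48. Atp5g3 stood at 0.09 in macrophages and −0.38 in CD8 T cells, a difference of 0.47. Cox7a2l, the supercomplex factor, stood at 0.25 in CD8 T cells and −0.18 in NK cells, a difference of 0.42. Cox7c, a small complex IV subunit, stood at 0.04 in macrophages and −0.37 in dendritic cells, a difference of 0.42. Atp5k, a membrane subunit of the ATP synthase, stood at 0.07 in macrophages and −0.29 in Tregs, a difference of 0.36. Ndufa1, an accessory subunit of complex I, stood at 0.15 in macrophages and −0.13 in CD8 T cells, a difference of 0.28. Cox6b1 stood at 0.09 in NK cells and −0.14 in CD8 T cells, a difference of 0.23.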

How the results depend on the processing

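No alternative turned the direction of the summed share or of the median gene in a class. In resident-like macrophages the order of the 2 libraries did turn, as given with the cluster-based states. Values made with the counts of the deposited raw table or with free RNA subtracted (24 values each) were the same within the counting error or within 1.5 times the count. The class values that did move follow, as log2 ratios Siah2-/- over WT and as numbers of OXPHOS genes past the fold, each with the share of all genes past it under the same alternative in parentheses. Over all classes, directions and alternatives, the main setting included, 12 of 180 such counts had a share of OXPHOS genes above that of all genes, all of them of lower genes in Tregs, dendritic cells or CD8 T cells. With all barcodes of at least 1000 UMIs, which adds cells the authors had removed, the summed share was −0.077 in macrophages, −0.19 in dendritic cells, −0.17 in CD8 T cells and −0.10 in Tregs, the median gene −0.090, −0.18, −0.20 and −0.11 in the same order, and the lower genes 2 in each of dendritic (8.83%), CD8 T (5.67%), CD4 T (7.92%) and NK cells (2.82%) and 1 in Tregs (7.78%), with 0 higher in CD4 T cells (10.2%) and 1 in Tregs (8.63%). Centred on the median of all genes, the summed share was −0.057 in macrophages, −0.17 in CD8 T cells and −0.14 in NK cells, the median gene −0.080, −0.21 and −0.13, and the lower genes 3 in CD8 T cells (8.82%) and 2 in NK cells (5.86%). With a total free of mitochondrially encoded and ribosomal protein genes, the summed share was −0.14 in macrophages, −0.29 in dendritic cells, −0.26 in Tregs and −0.14 in NK cells, the median gene −0.16, −0.31 and −0.13 in macrophages, dendritic cells and NK cells, and the lower genes 19 in Tregs (19.1%) and 2 in NK cells (5.92%). With the same lowest UMI count of 6670 in both libraries, the summed share was −0.086 in macrophages, −0.20 in CD8 T cells and −0.19 in Tregs, the median gene −0.10 in macrophages and −0.23 in CD8 T cells, and the Siah2-/- share 2.31% in interferon-induced and in monocyte-like macrophages. In a depth window of 7500 to 15000 UMIs, chosen after seeing the data, the summed share was −0.091 in macrophages and −0.19 in CD8 T cells, the median gene −0.087 in macrophages, −0.22 in CD8 T cells and −0.050 in CD4 T cells, with 4 lower genes in macrophages (8.91%) and 5 higher in CD4 T cells (21.7%). With every cell weighted equally, the summed share was −0.12 in macrophages and −0.25 in CD8 T cells, the median gene −0.15 and −0.29, with 0 higher genes in macrophages (11.3%). Without cycling cells, the summed share was −0.10 in macrophages and −0.048 in CD4 T cells, the median gene −0.28 in CD8 T cells, with 5 higher genes in CD4 T cells (25.8%). A stricter gate gave CD4 T cells −0.011 for the summed share, −0.018 for the median gene and 8 higher genes (24.2%), and Tregs −0.31 for the median gene and 21 lower genes (18.5%). With macrophage states weighted as in WT, also chosen after seeing the data, the summed share was −0.070.

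At a fold of 0.25 on the log2 scale, lower and higher genes were 14 and 2 of 92 in macrophages (24.3% and 20.2% of all genes), 43 and 2 of 79 in dendritic cells (30.7% and 29.3%), 47 and 2 of 87 in CD8 T cells (28.8% and 22.5%), 22 and 7 of 82 in CD4 T cells (31.4% and 34.5%), 38 and 1 of 78 in Tregs (32.5% and 29.4%) and 6 and 2 of 87 in NK cells (14.8% and 29.5%). At a fold of 1, lower genes were 1 in CD4 T cells (4.47% of all genes) and 0 in the other classes (0.328% to 4.44%), and higher genes 0 in macrophages (3.98%) and CD4 T cells (9.31%). A minimum of 200 UMIs left 1 lower gene of 90 in macrophages (7.53%), 3 of 84 in CD8 T cells (10%) and 1 higher of 71 in CD4 T cells (19.2%). With no minimum there were 2 higher genes of 93 in macrophages (16.2%), 1 of 90 in dendritic cells (23.7%), 1 of 92 in CD8 T cells (16.8%) and 3 of 89 in Tregs (24.9%), and 13 lower of 90 in dendritic cells (22.5%) and 3 of 91 in NK cells (8.83%). States taken from clusters made without the OXPHOS genes held 2.82% and 2.80% (resident-like, WT and Siah2-/-) and 2.93% and 2.91% (cycling), with 2.66% for WT Mgl2 cells, 2.36% for Siah2-/- interferon-induced cells and 2.45% for WT monocyte-like cells. The causes were not tested, beyond what each alternative removes by its construction.

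Of the 125 log2 ratios of single named genes, 21 moved beyond their counting error with all barcodes of at least 1000 UMIs, 11 when centred on the median of all genes, 9 in the depth window, 7 with the same lowest UMI count, 5 with cells weighted equally, 4 with the reduced total, and 1 each without cycling cells and with the stricter gate. Weighting the states as in WT moved 11 ratios in macrophages and left 17 the same within the counting error. Some alternative turned the sign of 25 of the 125, each with an interval that held 0, and 3 of these were past 0.25, namely Ndufaf2 in CD4 T cells (0.52 to −0.47 with all barcodes), Ndufa6 in Tregs (0.25 to −0.07 with all barcodes) and Ndufaf6 in NK cells (−0.46 to 0.05 in the depth window).

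No paired analysis was possible because each genotype has 1 library. For the same reason no library could be left out, and no value says how far 2 libraries of 1 genotype would differ. CD4 T cells rest on 21 WT cells and 195951 WT UMIs, and dendritic cells and Tregs on under 110 cells in each library, and the intervals of single genes there are wide. A cell of a class may hold free RNA of others.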
